A study of Rattus norvegicus with 12 samples.

Results

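The genes described here are those that the deposited annotation places in the KEGG pathway of DNA replication in rat, grouped by the protein complex each encodes. The rule found 35 of the 18749 genes in the count table (0.187%), and all 35 passed the filter on low counts that left 15704 genes for testing. They are the 6 subunits of the MCM helicase, 4 of DNA polymerase alpha-primase, 4 of polymerase delta, 4 of polymerase epsilon, the sliding clamp Pcna, 5 subunits of the clamp loader RFC, 3 of the single-strand binding protein RPA, 6 genes of Okazaki fragment maturation, the mitochondrial single-strand binding protein Ssbp1, and LOC100362333. RefSeq names LOC100362333 as the pseudogene Pole3-ps3, so its reads may be shared with Pole3 and its values are uncertain.

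RNA with poly(A) tails was sequenced from intestine of wild-type rats to follow small-bowel adaptation once the colon is gone. The postSTC group was sampled postoperatively (replicates 1, 2, 5 and 7), the preSTC group preoperatively (replicates 1, 5, 7 and 9), and the preCTC group before a sham operation (replicates 1, 5, 7 and 9). The labels leave STC and CTC undefined and give no strain, age, sex or time after operation. Effects of surgery and of elapsed time cannot be told apart, because no sample from after a sham operation was analysed here. Nothing in the labels ties replicates to separate animals, so p-values reflect sample-to-sample spread that may be technical.

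Library totals were 30095656 to 39374682 counts in postSTC, 35411844 to 37870799 in preSTC and 34217255 to 36470458 in preCTC. Replication genes took 0.0468 to 0.111% of the counts in postSTC, 0.129 to 0.162% in preSTC and 0.0909 to 0.107% in preCTC. Library postSTC7 stood apart, with 44.4% of its counts in 12 genes of seminal vesicle and related accessory glands, and its replication share was the lowest of the 12 libraries. Epithelial markers were present in every library, at 10480 to 18630 CPM (counts scaled to library size with TMM factors) summed over 20 genes in postSTC, 17020 to 21590 in preSTC and 13530 to 17820 in preCTC. A list of 9 ileal genes, bile acid carriers among them, summed to 3233 to 13870 CPM in postSTC and 7854 to 9010 CPM in preSTC, but to 86.6 to 128 CPM in preCTC, where the bile acid transporter Slc10a2 had 4 to 19 counts. A list of 10 colonic genes summed to 267 to 651 CPM in postSTC, 45.4 to 71.9 CPM in preSTC and 1642 to 3600 CPM in preCTC. The distal-gut regulator Hoxb13 was at 42.2 to 125 CPM in postSTC and had 2 to 12 counts in preSTC, and in preCTC it was at 315 to 445 CPM in replicates 1, 7 and 9 but at 1.45 CPM in replicate 5. In postSTC against preSTC, 8 of the 10 colonic genes rose and 3 of the 9 ileal genes fell, and in preSTC against preCTC all 10 colonic genes fell and all 9 ileal genes rose (edgeR). In postSTC against preCTC, 8 of the 9 ileal genes rose and 3 of the 10 colonic genes fell. Regional profile thus differed between the groups in each comparison, and its part in the replication genes' differences was not tested.

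Before a cell divides, each origin of replication is licensed by loading MCM helicase rings, which later unwind the DNA ahead of the fork. Polymerase alpha-primase lays down primers, RFC loads the Pcna clamp, and polymerases epsilon and delta extend the leading and lagging strands, while RPA coats the exposed single strand. Okazaki fragments are then freed of their primers by nucleases and joined by a ligase. In the intestine these genes are known as markers of the dividing cells of the crypt. Transcription of many of them at the start of S phase is known to be driven by E2F factors, whose core site in promoters is close to TTCCCGC.

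Promoters of 32 of the 35 genes were found in RefSeq (assembly GRCr8, 250 bases before to 50 bases after the annotated start). They were searched on both strands for 4 E2F words, which were TTCCCGC, the related word TTGGCGC, the related word TTGCCGC and lastly the word TTCGCGC. They were also searched for the NF-Y word CCAAT and for the word TTTGAA of the cell-cycle homology region. Matches may overlap one another. An E2F word was present in 20 of the 32 promoters (62.5%), against 2749 of all 27457 RefSeq promoters (10.0%) and 14.5% of the 14941 promoters of genes in the count table. In the 250 bases before the start alone, an E2F word was present in 10 of the 32 (31.2%), against 7.97% of all promoters and 11.5% of those of genes in the count table. In the longer window CCAAT was present in 17 (53.1%), against 37.7% of all promoters and 37.5% of those in the count table. TTTGAA was present in 4 (12.5%), against 18.1% and 13.7%. The sequences below are the 250 bases before the start, 5′ to 3′ on the gene's strand, with matches to an E2F word or CCAAT in capitals. Mcm5 and Pola1 carry several E2F words, Pcna carries CCAAT alone, Pole4 carries 1 E2F word next to its start, and Ssbp1 carries no match. A match is a description of these letters and not evidence of a bound site.

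Mcm5 (chr19:13488563-13488812, plus strand): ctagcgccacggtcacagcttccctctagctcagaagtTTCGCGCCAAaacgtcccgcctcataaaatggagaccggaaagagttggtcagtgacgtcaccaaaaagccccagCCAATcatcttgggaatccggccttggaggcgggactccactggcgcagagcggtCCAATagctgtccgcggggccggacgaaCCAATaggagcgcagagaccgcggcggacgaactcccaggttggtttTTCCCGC
Pola1 (chrX:62342356-62342605, minus strand): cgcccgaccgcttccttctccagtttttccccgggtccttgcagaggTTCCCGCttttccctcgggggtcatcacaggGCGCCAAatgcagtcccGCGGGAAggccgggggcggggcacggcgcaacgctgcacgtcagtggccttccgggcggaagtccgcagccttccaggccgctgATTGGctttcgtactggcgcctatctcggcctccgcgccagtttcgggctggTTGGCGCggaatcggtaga
Pcna (chr3:139955821-139956070, minus strand): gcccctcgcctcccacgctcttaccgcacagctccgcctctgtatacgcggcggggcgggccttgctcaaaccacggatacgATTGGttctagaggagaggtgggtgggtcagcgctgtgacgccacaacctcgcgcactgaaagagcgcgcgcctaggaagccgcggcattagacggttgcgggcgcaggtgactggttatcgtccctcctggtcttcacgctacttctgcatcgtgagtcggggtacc
Pole4 (chr4:116728852-116729101, minus strand): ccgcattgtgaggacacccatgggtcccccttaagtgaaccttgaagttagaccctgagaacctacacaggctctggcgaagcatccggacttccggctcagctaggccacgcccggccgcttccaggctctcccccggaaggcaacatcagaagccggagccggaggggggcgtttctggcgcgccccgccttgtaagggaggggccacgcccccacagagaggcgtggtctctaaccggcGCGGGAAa
Ssbp1 (chr4:70232520-70232769, plus strand): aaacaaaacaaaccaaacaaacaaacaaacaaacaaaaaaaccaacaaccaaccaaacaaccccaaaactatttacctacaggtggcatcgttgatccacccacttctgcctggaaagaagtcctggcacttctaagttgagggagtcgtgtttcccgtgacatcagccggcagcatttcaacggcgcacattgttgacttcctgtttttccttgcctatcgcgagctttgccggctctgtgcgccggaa

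The first comparison was of postSTC with preSTC, the samples after and before the operation. Of the 35 replication genes, 23 fell in postSTC and none rose, while 12 did not pass the test (edgeR's quasi-likelihood test on all 15704 genes, Benjamini-Hochberg adjusted p under 0.05). At an unadjusted p under 0.05 there were 26, and DESeq2 called 25 lower and limma voom 22, each with none higher. Among all genes tested, 6.90% fell and 11.1% rose by the edgeR adjusted p, 18.0% in all. In either direction, 5276 of the 15704 genes had an unadjusted p under 0.05, DESeq2 called 25.1% and limma voom 15.2%. The median log2 fold change of the 35 genes was -0.68, a fold of 0.624, against a median of 0.04 over all genes tested, and 34 of the 35 had a negative value, Pole4 being the exception. In 25 of the 35 genes, every postSTC library lay below every preSTC library, against 10.2% of all genes tested. Summed over the 35 genes, expression was 934 ± 84 CPM in postSTC and 1470 ± 128 CPM in preSTC (SD, n = 4 each). The lowest and highest libraries were 824 and 1027 CPM in postSTC, against 1333 and 1585 CPM in preSTC. In bulk tissue, fewer dividing cells and less RNA per cell cannot be told apart. Within the 3 replicate numbers that both groups share, 28 genes were lower in postSTC in every pair, 6 in 2 of the pairs, and Pole4 in none. The share of all genes tested that were lower in every pair is not given here, so this count is a description only.

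The count depended on how the pairs and the tissue makeup entered the fit. Blocked on the replicate number, 19 genes fell when all 12 libraries were fitted, and 1 gene, Mcm5, fell when only the 8 libraries of the comparison were fitted (log2 fold change -1.42, edgeR adjusted p = 0.0394), a fit with 2 residual degrees of freedom in which 66 genes (0.432%) were called in all. The median over the 35 genes was -0.71 and -0.74 in those 2 fits. Over all genes, the blocked fit of 12 libraries called 1746 (11.1%). Smooth muscle markers were higher in postSTC, with 8 of 13 genes rising and sums of 8475 to 12760 CPM in postSTC, against 4675 to 7291 CPM in preSTC. A covariate for that muscle score left Mcm5 and Mcm7 called (edgeR adjusted p = 0.0318 and edgeR adjusted p = 0.0331), the median was -0.74, and 125 genes (0.796%) were called in all. The score, the mean log2 CPM of these markers, did not overlap between postSTC (8.94 to 9.52) and preSTC (8.01 to 8.64). The covariate fit thus cannot fully separate it from the group. With libraries scaled on the epithelial genes, the median of all genes was 0.54 and that of the replication genes -0.22. Mcm5 and Pole then fell, and Pole4 rose by 0.65 on the log2 scale (edgeR adjusted p = 0.0268), near the shift of all genes. In that fit 5303 genes (33.8%) were called in all, 173 of them lower. The 12 marker genes of B cells and germinal centres, which also hold dividing cells, had a median log2 fold change of -1.63, with none called by edgeR and 2 at an unadjusted p under 0.05. Their sums were 57.6 to 214 CPM in postSTC against 43.6 to 762 CPM in preSTC, ranges that overlapped. Fibroblast and matrix markers rose in 4 of 10 genes, with sums of 2469 to 4226 CPM in postSTC against 2133 to 2773 CPM in preSTC. T and NK cell markers had a median log2 fold change of -0.63 over 10 genes, with none called by edgeR. Their sums were 137 to 371 CPM in postSTC against 279 to 374 CPM in preSTC, ranges that overlapped. The part of B cells, T and NK cells and fibroblasts in the replication genes' fall was not tested.

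**Figure D1:**
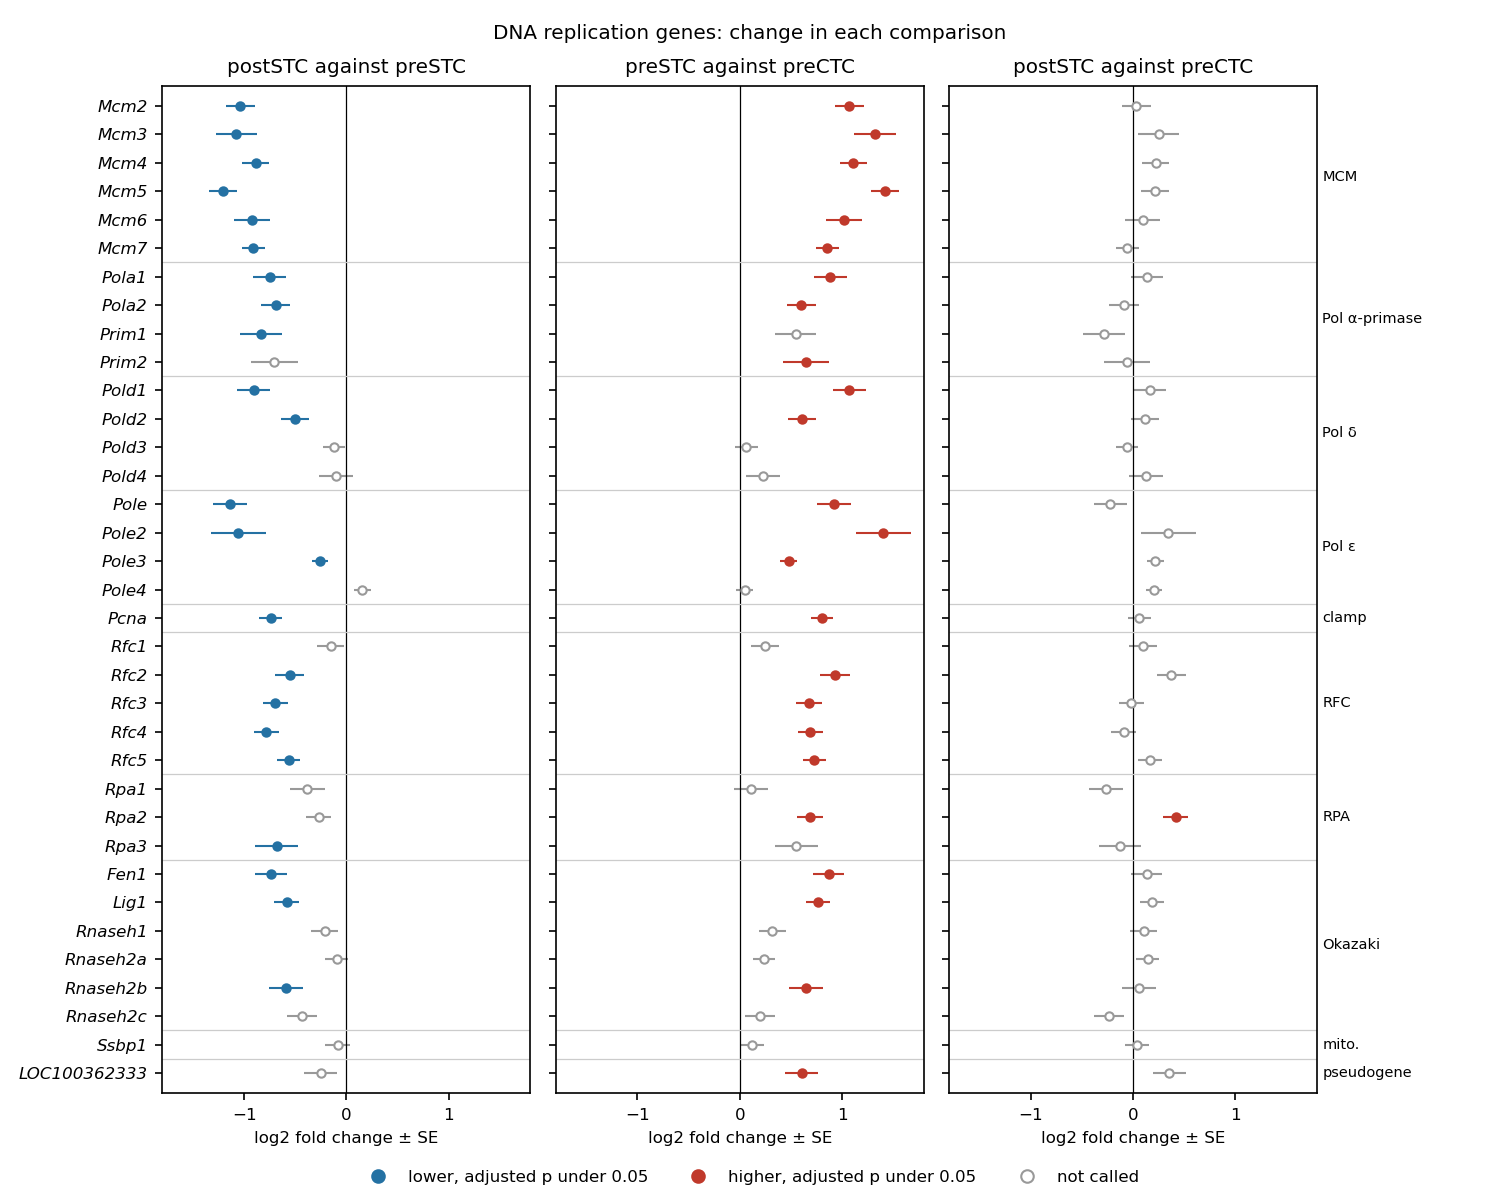
Log2 fold change of each of the 35 replication genes, grouped by complex, for each of the 3 comparisons; bars are 1 SE, filled points passed an edgeR adjusted p under 0.05 and open points did not. In postSTC against preSTC the 6 MCM genes lie between -1.20 and -0.89 while Pole4 is at 0.16, and in postSTC against preCTC the filled point is Rpa2 at 0.42.

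All 6 subunits of the MCM helicase fell in postSTC, with a median log2 fold change of -0.98. Their summed expression was 230, 281, 213 and 205 CPM in replicates 1, 2, 5 and 7 of postSTC, against 414, 523, 514 and 407 CPM in replicates 1, 5, 7 and 9 of preSTC. In the values that follow, libraries of each group keep this order, and preCTC libraries run over replicates 1, 5, 7 and 9. Mcm7 had 51.5, 55.6, 47.6 and 48.1 CPM in postSTC, against 84.8, 102, 112 and 82.4 CPM in preSTC and 47.4, 54.8, 56.6 and 51.8 CPM in preCTC, so that the postSTC and preSTC libraries did not overlap and postSTC and preCTC did. Against preSTC the log2 fold change in postSTC was -0.91 ± 0.11 (SE, edgeR adjusted p = 0.000826). Mcm2 had 37.7, 55.0, 37.1 and 45.5 CPM in postSTC, against 79.9, 103, 98.8 and 78.8 CPM in preSTC and 37.8, 43.8, 42.7 and 47.1 CPM in preCTC. The log2 fold change in postSTC against preSTC was -1.04 ± 0.14 (SE, edgeR adjusted p = 0.00141), and its groups did not overlap. The strongest fall of the 35 genes was that of Mcm5, chosen here for its size. Mcm5 had 31.5, 40.3, 29.6 and 29.0 CPM in postSTC, against 76.2, 81.6, 80.5 and 62.5 CPM in preSTC and 24.5, 31.9, 29.2 and 27.0 CPM in preCTC, which left the highest postSTC library below the lowest preSTC library. Its log2 fold change in postSTC against preSTC was -1.20 ± 0.13 (SE, edgeR adjusted p = 0.000605), and the log2 difference within the pairs was -1.27, -1.46 and -1.47 for replicates 1, 5 and 7. Mcm3, Mcm4 and Mcm6 fell by 1.08, 0.89 and 0.92 on the log2 scale. In the blocked fit of 8 libraries the edgeR adjusted p of the 6 genes ran from 0.0394 to 0.0913. Each of the 6 stayed called in every fit that left out 1 library, where their edgeR adjusted p reached at most 0.019.

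Polymerase alpha-primase begins each new strand, with Pola1 as the DNA polymerase, Pola2 as its regulatory subunit, and Prim1 and Prim2 as the small and large primase subunits. Of these 4 genes 3 fell. Pola1 had 28.6, 26.5, 22.1 and 16.2 CPM in postSTC, against 37.8, 42.2, 39.1 and 38.0 CPM in preSTC and 17.8, 23.4, 22.7 and 21.1 CPM in preCTC. For postSTC against preSTC the log2 fold change was -0.75 ± 0.16 (SE, edgeR adjusted p = 0.00941), with no overlap between postSTC and preSTC. Prim1 had 55.9, 38.5, 66.8 and 42.5 CPM in postSTC, against 79.3, 95.6, 105 and 82.5 CPM in preSTC and 50.4, 85.1, 61.5 and 51.3 CPM in preCTC. Between postSTC and preSTC the log2 fold change was -0.83 ± 0.20 (SE, edgeR adjusted p = 0.0171), and postSTC and preSTC again did not overlap, although 1 preCTC library lay within the preSTC range. Without replicate 7 of preSTC the call was lost (edgeR adjusted p = 0.0525). Prim2 had 5.98, 7.39, 6.86 and 3.99 CPM in postSTC, against 7.22, 10.4, 13.5 and 8.40 CPM in preSTC and 6.17, 6.51, 6.30 and 6.29 CPM in preCTC, with wide spread in preSTC. In postSTC against preSTC the log2 fold change was -0.70 ± 0.23 (SE, edgeR adjusted p = 0.051), just outside the threshold. Without replicate 2 of postSTC or replicate 1 of preSTC, Prim2 passed (edgeR adjusted p = 0.0495 and edgeR adjusted p = 0.0435). Pola2 fell by 0.69 on the log2 scale.

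The catalytic subunits of both replicative polymerases fell, while the accessory subunits Pold3, Pold4 and Pole4 did not pass the test. Pold1, the catalytic subunit of polymerase delta, was at -0.91 ± 0.16 (SE) on that log2 scale with an edgeR adjusted p = 0.00384, and Pold2, its partner, was at -0.50 ± 0.14 (edgeR adjusted p = 0.0278). Pold3 had 25.9, 26.1, 23.5 and 20.9 CPM in postSTC, against 23.0, 28.6, 27.5 and 25.9 CPM in preSTC and 24.4, 22.9, 25.8 and 27.3 CPM in preCTC. Against preSTC the log2 fold change in postSTC was -0.12 ± 0.11 (SE, edgeR adjusted p = 0.462) for Pold3, a subunit that binds Pcna, and the groups overlapped. Pold4 had 25.4, 24.6, 23.5 and 21.3 CPM in postSTC, against 17.6, 34.2, 23.6 and 26.5 CPM in preSTC and 23.2, 21.1, 19.9 and 22.7 CPM in preCTC. The log2 fold change in postSTC against preSTC was -0.11 ± 0.17 (SE, edgeR adjusted p = 0.697) for Pold4, the smallest subunit, whose preSTC libraries covered the whole range of postSTC. Pole, the catalytic subunit of polymerase epsilon, was at -1.14 ± 0.17 (SE, edgeR adjusted p = 0.00173), and Pole2 was at -1.06 ± 0.27 (edgeR adjusted p = 0.0193). Pole3 and Pole4 are histone-fold subunits. Pole3 had 47.7, 45.5, 48.4 and 42.3 CPM in postSTC, against 51.4, 53.8, 57.6 and 57.5 CPM in preSTC and 38.8, 42.6, 38.4 and 38.4 CPM in preCTC. Its log2 fold change in postSTC against preSTC was -0.26 ± 0.08 (SE, edgeR adjusted p = 0.0444), and postSTC and preSTC did not overlap. This call was lost with the block (edgeR adjusted p = 0.157 over 12 libraries) and without 1 library in 10 of 12 cases, with log2 fold changes from -0.29 to -0.23. Pole2 lost its call without replicate 7 of preSTC (edgeR adjusted p = 0.0578) and with the block (edgeR adjusted p = 0.0552 over 12 libraries), and Pold2 without replicate 5 of postSTC or replicate 5 or 7 of preSTC (edgeR adjusted p = 0.065 to 0.0876). Pole4 had 35.4, 34.0, 34.3 and 33.3 CPM in postSTC, against 28.7, 31.0, 29.9 and 33.4 CPM in preSTC and 30.3, 29.6, 27.6 and 31.4 CPM in preCTC, which made it the only replication gene with a positive estimate. For postSTC against preSTC the log2 fold change was 0.16 ± 0.08 (SE, edgeR adjusted p = 0.208).

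Of the genes, 4 pairs were also compared as a ratio within each library, which does not depend on depth or scaling. Pole4 over Pole and Pold4 over Pold1 are pairs of subunits of 1 complex, while Ssbp1 over Rpa1 and Rnaseh1 over Rnaseh2a are pairs of separate proteins. The pairs were chosen with earlier results of these data known, so their p-values give no independent support. The log2 ratio of Pole4 to Pole was 1.37 ± 0.222 in postSTC and 0.0599 ± 0.236 in preSTC (SD, n = 4 each), a difference of 1.31. The exact two-sided permutation test gave p = 0.0286, the smallest value that 4 against 4 libraries allow, and p = 0.0857 after adjustment over 12 ratio tests. The log2 ratio of Pold4 to Pold1 was 0.415 ± 0.190 in postSTC and -0.443 ± 0.397 in preSTC, a difference of 0.86 with the same exact p = 0.0286 and adjusted p = 0.0857. Neither passed the threshold after adjustment, and in both ratios every postSTC library lay above every preSTC library. For Ssbp1 over Rpa1 the difference was 0.29 (exact permutation test, adjusted p = 0.392), and for Rnaseh1 over Rnaseh2a it was -0.10 (adjusted p = 0.8, exact permutation test).

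Pcna forms the ring that holds polymerases on DNA. Pcna had 78.3, 91.1, 78.1 and 66.7 CPM in postSTC, against 124, 136, 138 and 127 CPM in preSTC and 71.4, 89.0, 68.6 and 72.1 CPM in preCTC. Between postSTC and preSTC the log2 fold change was -0.74 ± 0.11 (SE, edgeR adjusted p = 0.00199), with every postSTC library below every preSTC library. With the block in the fit of 8 libraries its edgeR adjusted p was 0.0795. Of the 5 subunits of RFC, which opens and loads that ring, 4 fell. Rfc5 had 19.4, 23.7, 20.8 and 17.1 CPM in postSTC, against 28.6, 32.4, 30.5 and 28.4 CPM in preSTC and 16.8, 19.4, 18.9 and 17.1 CPM in preCTC. In postSTC against preSTC the log2 fold change was -0.57 ± 0.11 (SE, edgeR adjusted p = 0.00707), and the groups did not overlap. Rfc2, Rfc3 and Rfc4 fell by 0.56, 0.69 and 0.78 on the log2 scale. Rfc2 lost its call with the block (edgeR adjusted p = 0.073 over 12 libraries) and without replicate 5 of postSTC or replicate 5, 7 or 9 of preSTC (edgeR adjusted p = 0.0514 to 0.0606). Rfc1 had 38.2, 40.1, 41.6 and 35.8 CPM in postSTC, against 34.1, 54.7, 43.4 and 40.8 CPM in preSTC and 37.5, 33.1, 34.5 and 40.7 CPM in preCTC, with overlap of all 3 groups. Against preSTC the log2 fold change in postSTC was -0.15 ± 0.13 (SE, edgeR adjusted p = 0.459) for Rfc1, the large subunit that is particular to this loader. The Rfc2 to Rfc5 subunits also serve alternative loaders, of which Chtf18 and Atad5 each encode a large subunit. Of 3 tested genes of such loaders, these 2 fell, by 0.80 and 0.79 on the log2 scale, and Dscc1 was at -0.25 and not called.

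RPA protects single-stranded DNA at the fork and in repair, and 1 of its 3 subunits passed the test. Rpa1 had 34.4, 46.6, 48.6 and 37.4 CPM in postSTC, against 41.2, 67.1, 56.1 and 53.0 CPM in preSTC and 44.8, 46.1, 48.4 and 61.8 CPM in preCTC. The log2 fold change in postSTC against preSTC was -0.38 ± 0.17 (SE, edgeR adjusted p = 0.132), and the groups overlapped. Rpa2 had 17.3, 15.5, 13.5 and 16.0 CPM in postSTC, against 18.3, 20.2, 18.9 and 17.6 CPM in preSTC and 11.2, 13.1, 12.7 and 9.69 CPM in preCTC. Its log2 fold change in postSTC against preSTC was -0.27 ± 0.12 (SE, edgeR adjusted p = 0.151), a gene whose postSTC libraries all lay below the preSTC libraries without passing the test. Rpa3 had 30.6, 30.9, 31.3 and 17.8 CPM in postSTC, against 42.9, 39.7, 45.9 and 49.1 CPM in preSTC and 25.4, 43.0, 25.1 and 27.4 CPM in preCTC, where replicate 7 of postSTC was below every other library. For postSTC against preSTC the log2 fold change was -0.68 ± 0.21 (SE, edgeR adjusted p = 0.0418), a call that did not hold with the block (edgeR adjusted p = 0.0688 over 12 libraries) or without 1 library in 8 of 12 cases (edgeR adjusted p = 0.0535 to 0.0979). Without replicate 7 of postSTC, 21 of the 35 genes fell and the median was -0.56, and without replicates 1 and 7 of postSTC, 17 fell and the median was -0.54. Over all genes, these fits called 18.3% (1155 genes lower) and 19.7% (1161 genes lower).

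Among the genes of Okazaki fragment maturation, 3 of 6 fell. Lig1 encodes the ligase that seals the fragments, and Fen1 the nuclease that trims their flaps. Lig1 had 45.6, 54.7, 43.2 and 47.0 CPM in postSTC, against 63.5, 75.3, 73.0 and 74.1 CPM in preSTC and 33.7, 44.1, 47.7 and 42.4 CPM in preCTC. Between postSTC and preSTC the log2 fold change was -0.59 ± 0.12 (SE, edgeR adjusted p = 0.00729), with no overlap between the groups. Fen1 fell by 0.74 on the log2 scale, and Rnaseh2b, a subunit of the ribonuclease that removes RNA from DNA, fell by 0.59. The call of Rnaseh2b was lost without replicate 1 of postSTC or replicate 1, 5 or 7 of preSTC (edgeR adjusted p = 0.0519 to 0.0847). Rnaseh2a had 34.9, 31.4, 26.0 and 26.8 CPM in postSTC, against 32.0, 30.1, 32.4 and 32.8 CPM in preSTC and 27.4, 26.8, 24.4 and 29.4 CPM in preCTC. In postSTC against preSTC the log2 fold change was -0.10 ± 0.11 (SE, edgeR adjusted p = 0.574) for this catalytic subunit of ribonuclease H2, whose groups overlapped. Rnaseh2c had 4.43, 5.89, 5.32 and 5.42 CPM in postSTC, against 7.36, 7.15, 7.45 and 6.44 CPM in preSTC and 6.62, 5.50, 6.12 and 6.50 CPM in preCTC. Against preSTC the log2 fold change in postSTC was -0.43 ± 0.15 (SE, edgeR adjusted p = 0.0626), and here the groups did not overlap. Rnaseh1 had 10.4, 12.3, 13.0 and 11.6 CPM in postSTC, against 15.5, 14.3, 13.3 and 11.7 CPM in preSTC and 11.8, 10.3, 9.82 and 12.1 CPM in preCTC, a gene also needed for mitochondrial DNA, with overlap. The log2 fold change in postSTC against preSTC was -0.21 ± 0.13 (SE, edgeR adjusted p = 0.285). Ssbp1 had 18.5, 18.9, 21.3 and 21.1 CPM in postSTC, against 21.4, 21.6, 17.8 and 23.8 CPM in preSTC and 21.6, 19.4, 16.9 and 19.8 CPM in preCTC, and all 3 groups overlapped for this mitochondrial protein. Its log2 fold change in postSTC against preSTC was -0.09 ± 0.12 (SE, edgeR adjusted p = 0.644). LOC100362333 had 6.37, 5.00, 4.84 and 4.66 CPM in postSTC, against 5.41, 7.07, 6.43 and 5.94 CPM in preSTC and 4.06, 4.18, 3.91 and 4.19 CPM in preCTC. For postSTC against preSTC the log2 fold change was -0.25 ± 0.16 (SE, edgeR adjusted p = 0.303) for this uncertain gene.

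**Figure D2:**
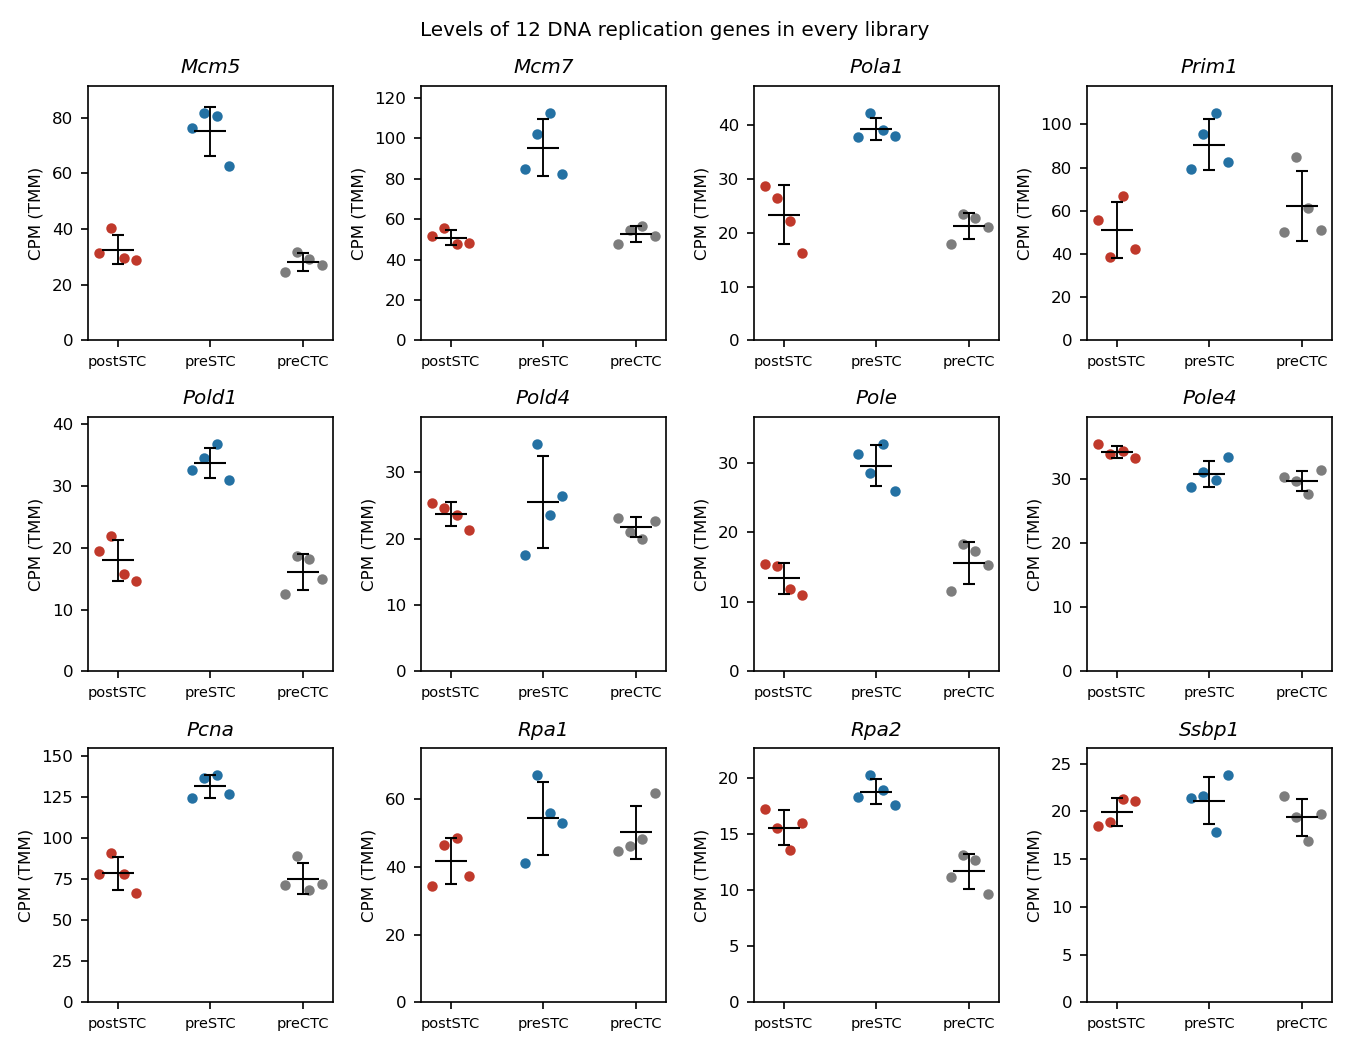
CPM (scaled by TMM, axes from 0) of 12 replication genes in every library, by group in the order postSTC, preSTC, preCTC; each point is 1 library, the long line the mean of 4 and the bar its SD. For Mcm5, Mcm7, Pole and Pcna all preSTC libraries lie above all libraries of the other groups, whereas for Pole4 and Ssbp1 postSTC and preSTC overlap.

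In the 300-base promoters, an E2F word was present in 16 of the 21 matched genes that fell and in 4 of the 11 matched genes that did not pass the test. In the 250 bases before the start these numbers were 8 of 21 and 2 of 11. Pcna fell without one in its window, and so did Pola2, Pold2, Rfc5 and Rnaseh2b, while Pole4, Pold3, Rfc1 and Rpa2 held one without a call. The promoter sequences of Mcm5 and Pole4 printed above each hold TTCCCGC or its reverse complement within the last 8 bases before the start, and the estimates of these genes were the lowest and the highest of the 35.

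The preSTC group was next set against preCTC, both sampled before an operation. This comparison shares its preSTC libraries with the first one, so opposite signs in the 2 are not independent. In preSTC 24 of the 35 genes rose and none fell, against 19.1% of all genes that rose and 19.6% that fell, 38.7% in all. At an unadjusted p under 0.05 there were 28, and DESeq2 called 27 higher and limma voom 26, each with none lower. Over all genes and both directions, 7533 of 15704 had an unadjusted p under 0.05, DESeq2 called 44.2% and limma voom 39.2%. The median log2 fold change was 0.68, against -0.02 over all genes tested, and all 35 values were positive. In 25 genes every preSTC library lay above every preCTC library, against 22.5% of all genes. All 6 MCM genes rose. The largest difference of the 35 was that of Mcm5, which rose by 1.42 ± 0.13 in log2 terms (SE, edgeR adjusted p = 1.57e-05), while Mcm3 rose by 1.32. The MCM sum was 407 to 523 CPM in preSTC, against 185 to 230 CPM in preCTC. Pole2 rose by 1.40, Pold1 by 1.07, Pole by 0.92 and Pcna by 0.80 on the log2 scale.

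Among the 11 genes that did not pass the test in preSTC against preCTC, Pole4 had a log2 fold change of 0.05, Pold3 of 0.07, Rpa1 of 0.11, Ssbp1 of 0.12, Rnaseh2c of 0.20, Pold4 of 0.23, Rnaseh2a of 0.24, Rfc1 of 0.25 and Rnaseh1 of 0.32. Rpa2 rose by 0.69 on the log2 scale in preSTC (edgeR adjusted p = 0.00125). Prim1 and Rpa3 missed the threshold, at 0.55 each (edgeR adjusted p = 0.0508 and edgeR adjusted p = 0.0528), with a preCTC5 library that lay above the other preCTC libraries for both. Smooth muscle markers moved with this comparison too, at 4675 to 7291 CPM in preSTC against 13530 to 22710 CPM in preCTC, with 12 of 13 genes lower. With that muscle score as covariate 2 replication genes rose, the median was 0.82, and 713 genes (4.54%) were called in all. The score did not overlap between preSTC (8.01 to 8.64) and preCTC (9.47 to 10.2). That fit thus cannot fully separate it from the group. T and NK cell markers were higher in preSTC for 8 of 10 genes, with sums of 279 to 374 CPM against 69.6 to 157 CPM in preCTC. The 12 B cell and germinal centre markers had a median log2 fold change of 1.58, with 1 called higher. Sums of these 12 genes overlapped, at 43.6 to 762 CPM in preSTC and 42.8 to 266 CPM in preCTC. Fibroblast and matrix markers were lower for 8 of 10 genes, with sums of 2133 to 2773 CPM in preSTC against 5711 to 8769 CPM in preCTC. The part of these cells in the replication genes' difference was not tested. Without replicate 5 of preCTC, 25 genes rose and the median was 0.74, and 34.4% of all genes were called.

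In postSTC against preCTC, 1 of the 35 genes, Rpa2, rose and none fell, against 9.27% of all genes that rose and 7.37% that fell, 16.6% in all. The median log2 fold change was 0.11, and in 4 genes (Pole4, Rfc2, Rpa2 and LOC100362333) every postSTC library lay above every preCTC library, against 9.54% of all genes. No gene had the reverse, which 8.60% of all genes had. Both groups also enter the comparisons above, so this result repeats the same libraries. Rpa2 was at 0.42 ± 0.13 on the log2 scale, with the SE (edgeR adjusted p = 0.0405), but passed the test in only 5 of 24 alternative fits, in which its edgeR adjusted p ran from 0.0122 to 0.604. At an unadjusted p under 0.05 there were 4 genes, and DESeq2 called 3 and limma voom 1. Over all genes and both directions, 4844 of 15704 had an unadjusted p under 0.05, DESeq2 called 22.8% and limma voom 15.8%. The MCM sums of postSTC (205 to 281 CPM) and preCTC (185 to 230 CPM) overlapped. Tissue markers differed between these groups, with smooth muscle sums of 8475 to 12760 CPM in postSTC against 13530 to 22710 CPM in preCTC. Of these muscle genes 4 of 13 fell, as did 4 of 10 fibroblast and matrix genes, while 5 of 10 T and NK cell genes rose. The part of these tissues and of the regional profile in this result was not tested. The p-values of replication genes that missed the threshold do not show that the groups were alike. The scaling used set the sign of the replication genes' median, which was -0.11 with libraries scaled by their totals alone. The median of all genes tested shifted too, from 0.04 in the fit reported to -0.20 with totals.

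Levels of different genes were compared only on the deposited FPKM values, which divide by gene length. Pcna had the highest level in each group, at 65.2 ± 22.6 FPKM in postSTC, 112 ± 7.18 FPKM in preSTC and 71.7 ± 8.78 FPKM in preCTC (SD, n = 4 each), and its library ranges overlapped with those of Rpa3, the next gene, in postSTC and preCTC but not in preSTC. These values are scaled by library totals, of which the accessory-gland genes took 44.4% in postSTC7, so the postSTC means and SDs include that library at a lower scale. Prim1 came next after Rpa3 in each group, with 27.0 ± 11.7 FPKM in postSTC, 49.5 ± 6.77 FPKM in preSTC and 37.7 ± 9.26 FPKM in preCTC. Pole, Pole2 and Prim2 held the lowest 3 places in each group, below 5 FPKM in every library. Subunits of 1 complex could thus be far apart in level, as Pole3 had 21.0 ± 1.29 FPKM and Pole 4.01 ± 0.354 FPKM in preSTC, and Prim1 49.5 FPKM and Prim2 3.47 FPKM. The MCM genes, whose products form a ring with 1 of each, were closer together than these pairs, with a highest mean over lowest mean of 2.02 in postSTC, 1.89 in preSTC and 2.57 in preCTC. This was not particular to MCM, as RFC means ran from 7.73 to 12.5 FPKM in postSTC. They ran from 8.97 to 21.1 FPKM in preSTC and from 8.41 to 14.6 FPKM in preCTC. Mcm7 was the highest MCM gene in each group. Its preSTC level of 36.0 ± 5.51 FPKM was followed by Mcm6, Mcm5 and Mcm2 at 28.1, 26.7 and 26.5 FPKM, whose library ranges overlapped one another but not that of Mcm7.

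**Figure D3:**
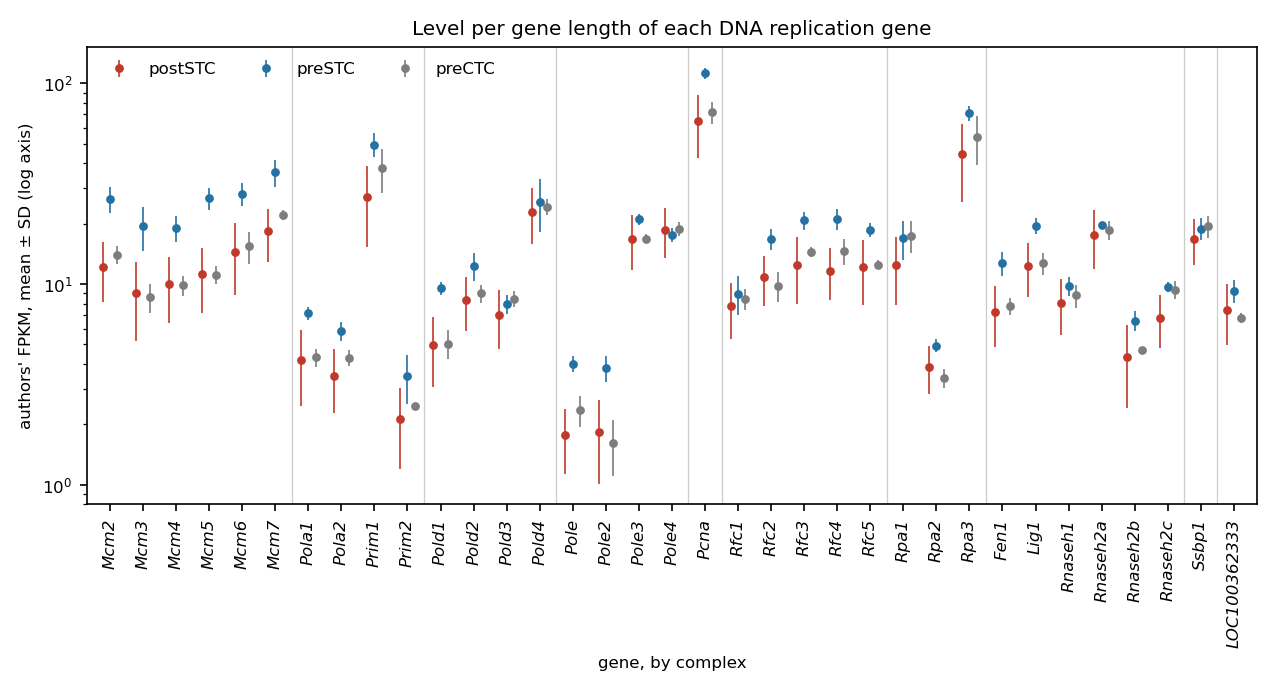
Mean deposited FPKM on a log axis for the 35 replication genes, grouped by complex, in postSTC, preSTC and preCTC; bars are the SD of 4 libraries, and those of postSTC include the low library postSTC7. Pcna has the highest mean in each group, Rpa3 and Prim1 follow, and Pole, Pole2 and Prim2 have the lowest.

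Other genes of the process were counted in lists chosen by role, in postSTC against preSTC. In origin licensing, 5 of 10 genes fell and 1 rose. Orc1, the large origin recognition subunit, fell by 1.33 on the log2 scale, and Cdt1 and Cdc6, which deliver MCM rings to origins, by 0.94 and 0.91. Orc4 rose by 0.51 ± 0.13 in log2 terms (SE, edgeR adjusted p = 0.0213). Among 12 genes of helicase activation 10 fell, including Ticrr by 1.27, Mcm10 by 1.10 and Gins2 by 1.02, all of which act when the loaded helicase is switched on. Fork protection and checkpoint genes fell in 5 of 12 cases, with Clspn, the adaptor of checkpoint signalling, at -1.31. Of 11 genes of deoxynucleotide supply 5 fell, led by Rrm2, the regulated subunit of ribonucleotide reductase, at -1.38, while its stress-induced relative Rrm2b was at 0.38 and not called. Chromatin assembly behind the fork had 8 of 10 genes lower, with Asf1b at -1.34 and its paralogue Asf1a at -0.05 and not called.

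Of 13 genes on the list of other polymerases 2 fell, Polq by 0.80 and Polh by 0.61 on the log2 scale, and of 8 genes of mitochondrial DNA replication 1 fell, Tfam by 0.50. The list medians were -0.01 and -0.23. Of the MCM relatives outside the helicase ring, Mcm8 fell by 0.99, and Mcm9 was at 0.05. Among 13 E2F and pocket protein genes 7 fell, led by E2f7 at -1.56, E2f8 at -1.12 and E2f2 at -1.03. E2f1 was at -0.34 and not called. All 20 cell cycle genes outside replication fell, led by Plk1 at -1.39, Ccnb1 at -1.25 and Birc5 at -1.22. Among 12 crypt genes 2 fell, Cd44 and Ephb2 by 0.63 each, and the stem cell marker Lgr5 was at -0.01 and not called. The crypt list ran from -1.32 to 0.58 on the log2 scale, with 6 values negative and 6 positive. Its summed expression was 620 to 996 CPM in postSTC against 1171 to 1703 CPM in preSTC, ranges that did not overlap. Such a sum is weighted to the most abundant genes, and the median log2 fold change of the list was 0.0029. The mean log2 CPM over the list did overlap, at 4.817 to 5.113 in postSTC and 5.095 to 5.286 in preSTC. These lists are described by their counts beside the 6.90% of all genes that fell, and no difference between lists was tested.

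**Figure D4:**
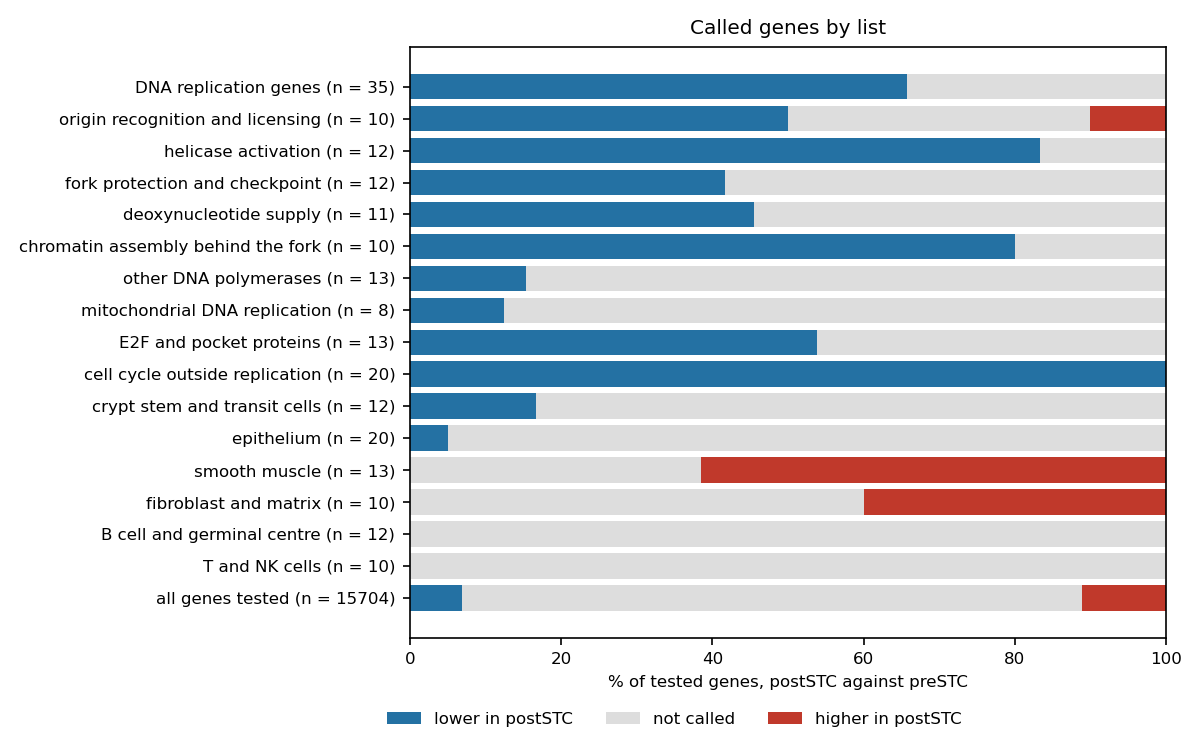
Share (%) of tested genes that fell (left), were not called (middle) and rose (right) in postSTC against preSTC (edgeR, adjusted p under 0.05), for the replication genes, 15 other lists and all genes tested. The cell cycle list fell in 20 of 20 genes and the replication genes in 23 of 35, whereas other polymerases fell in 2 of 13 and smooth muscle genes rose in 8 of 13.

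**Figure D5:**
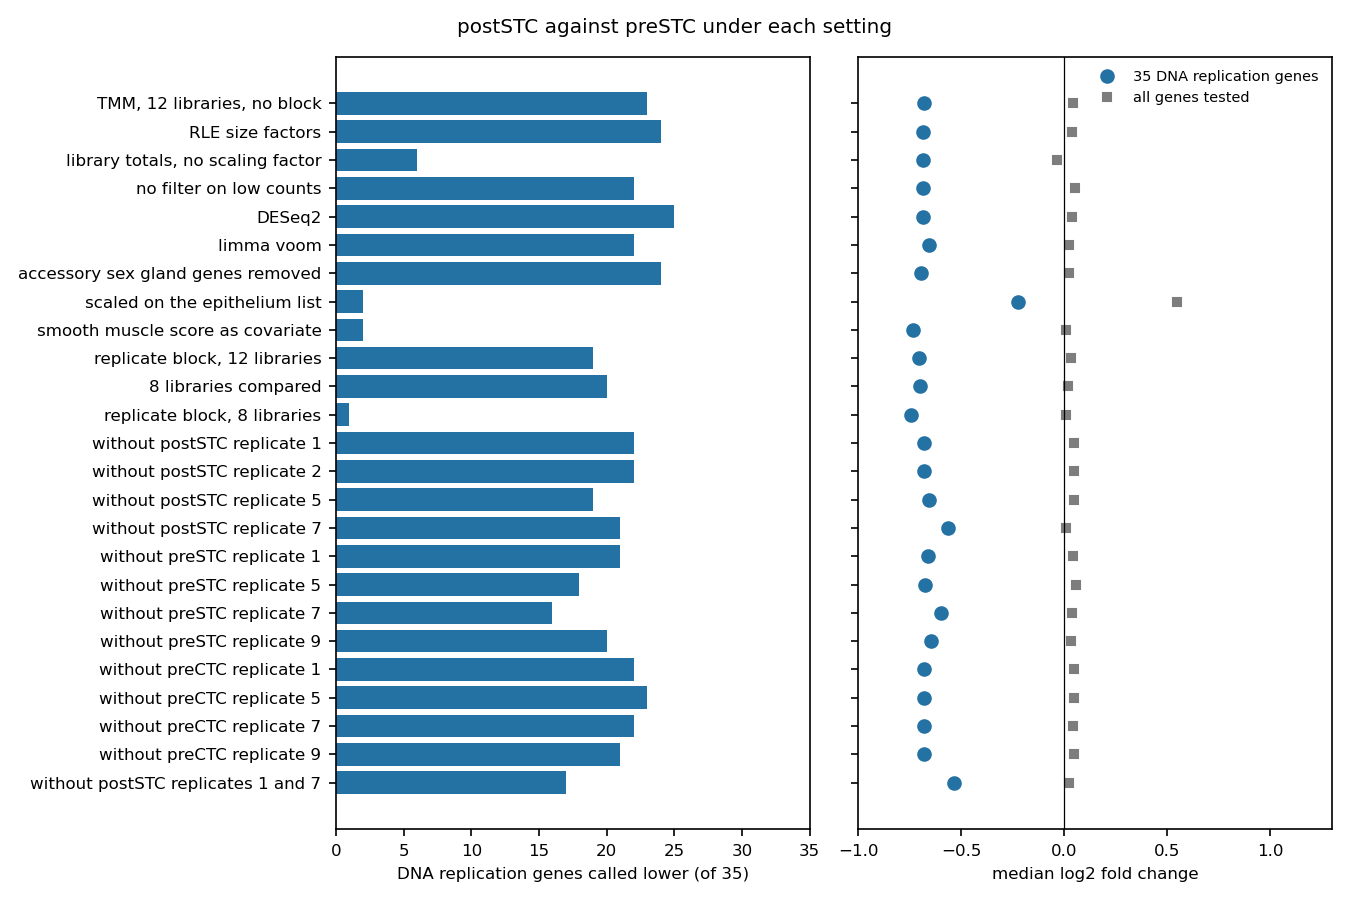
Number of the 35 replication genes that fell in postSTC against preSTC (bars) and median log2 fold change of these genes and of all genes tested (points), under the fit reported and each alternative on counts. The median of the replication genes ranges from -0.74 with the block over 8 libraries or the smooth muscle covariate to -0.22 with scaling on epithelial genes, while the number that fell ranges from 1 to 25.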

How the data were processed

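The authors deposited a table of raw read counts per gene and a table of FPKM values for the same 12 libraries. Per the submitters' processing notes, the tools were fastp, HISAT2 and HTSeq and the assembly mRatBN7.2. No versions, roles, strand setting or treatment of multiple matches are stated there. The series' design text describes pig ileum and another pipeline and was not used. TRIzol extraction, a VAHTS Universal V6 library kit and batch 1 for all samples are recorded per the labels' protocols. Within each gene the deposited FPKM tracked the count over the library total exactly, to rounding. They served to compare levels between genes and, on the log2 scale, as an alternative for the medians. Groups and replicate numbers came from the sample titles.

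Counts were analysed in R 4.3.3 with edgeR 4.0.16. After TMM scaling and filterByExpr, a single quasi-likelihood fit on the group covered 12 libraries and 15704 genes. Genes were called by the two-sided F-test at a Benjamini-Hochberg adjusted p under 0.05 over all genes, and the SE is the absolute log2 fold change over the square root of F. The biological coefficient of variation was 0.322, and the smallest chi-square per gene between replicates was 33.2, so no library was a duplicate. Subunit ratios (log2, 0.5 counts added) were tested by exact permutation over 70 splits. The steps were also run on simulated counts. These held no pairing, no shift in tissue makeup and no library like postSTC7, so they do not test those features. Alternatives were DESeq2 1.42.0, limma 3.58.1 (voom), other scalings and filters, a smooth muscle covariate, a replicate block and leaving out libraries. Dropping replicates 1 and 7 of postSTC together was chosen after seeing the data.

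The labels do not say that equal replicate numbers mark 1 animal. In postSTC and preSTC the 3 same-numbered pairs deviated together from their group means (correlation 0.158 to 0.236), so the block is reported there. In preSTC and preCTC this was -0.0278 to 0.222, and in postSTC and preCTC -0.0159 to 0.22.

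The replication genes and the 20 gene lists (223 of 232 genes in the table) were chosen with earlier results of these data known. Values in every library are given for the 2 genes of highest mean CPM in each complex and for each gene not called in postSTC against preSTC. From the other lists, at most 3 called genes of largest change are named, with genes of opposite direction or contrasting relatives. Sequences are from RefSeq GRCr8, matched by gene identifier, and 1 promoter per gene was counted.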

Additional observations from a re-analysis of the deposited data

Results flagged for a closer look

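In 7 of 105 group-wise checks of the 35 genes, 1 library lay farther from the other 3 than Dixon's 95% limit allows, where chance alone gives about 1 in 20. Of these, 4 concern library preCTC5. Pcna had 89.0 CPM there and 68.6 to 72.1 CPM in the other preCTC libraries. Rpa3 had 43.0 CPM in preCTC5 and 25.1 to 27.4 CPM in the others, Pole3 42.6 CPM against 38.4 to 38.8 CPM, and Rfc3 18.2 CPM against 16.0 to 16.3 CPM. Pola2 was low in preCTC1, at 11.3 CPM, where the others had 13.6 to 14.1 CPM. In postSTC7, Rpa3 had 17.8 CPM and the other postSTC libraries 30.6 to 31.3 CPM. Rfc2 had 21.6 CPM in preSTC1 and 27.1 to 27.4 CPM in the other preSTC libraries.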

How the results depend on the processing

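The 23 genes that fell in postSTC against preSTC became 6 with libraries scaled by their totals, 2 with scaling on epithelial genes (and 1 higher), 2 with the smooth muscle covariate and 1 with the replicate block over 8 libraries, with 19 under the block over 12; other settings, single libraries aside, gave 17 to 25. The median was -0.22 with epithelial scaling, which moved the median of all genes to 0.54, and there Pole3 turned to 0.23 (edgeR adjusted p = 0.295). Calls over all genes numbered 2833 in the fit reported, 848 with totals, 5303 with epithelial scaling, 125 with the covariate, 1746 and 66 with the block over 12 and 8 libraries, and 1609 and 1681 without replicate 1 or 7 of preSTC. Of these, 1084 fell in the fit reported, 177 with totals and 173 with epithelial scaling. Leaving out 1 library gave 16 to 23 genes and medians of -0.68 to -0.56, and 16 of the 23 genes stayed called in each such fit.

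In preSTC against preCTC the 24 genes that rose became 12 with totals, 13 with epithelial scaling and 2 with the covariate. The median was 0.52, 0.38 and 0.82 in those fits, and 0.51 and 0.43 on log2 FPKM with 0.1 and 1 added. Over all genes 6077 were called, 3082 of them lower, against 3973 (2798 lower) with totals, 4810 (3618 lower) with epithelial scaling and 713 with the covariate. Leaving out 1 library gave 23 to 26 genes and medians of 0.64 to 0.74. In postSTC against preCTC the 1 gene became 0 with totals, without a filter, without accessory gland genes, with epithelial scaling, with the covariate, with either block, with 8 libraries and without replicates 1 and 7 of postSTC, and 3 with DESeq2. Its median became -0.11 with totals, where that of all genes was -0.20, and -0.17 and -0.15 on log2 FPKM. Leaving out 1 library gave 0 to 1 gene and medians of 0.06 to 0.16. Over all genes 2612 were called, 1157 of them lower, against 1560 (952 lower) with totals, 1904 (462 lower) with epithelial scaling, 1673 with the covariate, 1455 with 8 libraries, and 1399 and 151 with the block over 12 and 8 libraries. The causes were not tested. In preSTC against preCTC the block over 12 and 8 libraries gave 24 and 26 genes that rose, where 36.5% and 45.9% of all genes were called. The 4 libraries in each group and an unknown pairing limit what these fits can separate.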

Other observations

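Beyond the 35 genes, the pathway lists were also counted in preSTC against preCTC, where 19.1% of all genes tested rose and 19.6% fell. Helicase activation genes rose in 10 of 12 cases, among them Mcm10 by 1.35 and Gins1 by 1.23 on the log2 scale. In deoxynucleotide supply 10 of 11 genes rose. Samhd1, which degrades deoxynucleotides, rose by 3.71 and Dck, a salvage kinase, by 1.79, whereas in postSTC against preSTC both missed the threshold at -0.58. Chromatin assembly genes rose in 9 of 10 cases, with Asf1a the exception at -0.05. In origin licensing 7 of 10 genes rose, Orc1 by 1.74, and Orc4 fell by 0.50. Among the 13 genes of other polymerases 1 rose (Mad2l2, the accessory subunit of polymerase zeta, by 0.78) and 2 fell (Polk by 0.80 and Polg2 by 0.66). Of 8 mitochondrial replication genes 2 rose and 2 fell. These libraries also differ in smooth muscle, fibroblast, T and NK cell and regional markers, and the part of those cells in these counts was not tested.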
